A study of Homo sapiens with 4 samples.

Results

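The sites described here are stretches of RNA that both size-matched inputs of a SAF-A CLIP-seq experiment listed and that neither SAF-A pull-down did. SAF-A, also called hnRNP U, is an abundant nuclear protein that binds RNA and DNA and is counted among the components of the nuclear matrix. CLIP-seq fixes proteins to the RNA they touch with ultraviolet light, recovers 1 protein with its RNA and sequences that RNA. A size-matched input is cut from the same part of the gel without the antibody, so it holds RNA crosslinked to any protein of that size range, and abundant RNAs can be listed in it whether or not SAF-A touches them. A site of the input that is missing from the pull-downs was not listed again after the antibody step. That alone does not show whether SAF-A touches it.

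The experiment used wild-type HCT116 cells, an established human colorectal carcinoma line, with no treatment or genotype that differed between samples. There were 2 pull-down samples and 2 input samples, and 1 peak list for each. The pull-down lists held 96061 and 111256 peaks (replicates 1 and 2), and the input lists held 29386 and 42256. The labels do not say whether the replicates were separate cultures, so the spread between them may be technical. Read depth is unknown, because the lists give peaks and not reads.

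Input peaks that overlapped a peak of the other input by 1 base or more on the same strand were merged into 22803 sites. Of these, 4545 overlapped no peak of either pull-down on their strand, which is 19.9%. The number depends on the lists: with all lists cut to the length of the shortest it was 7001 (35.1%), and with the peaks of input replicate 2 or 1 taken alone it was 13639 (32.3%) or 8515 (29.0%). The whole series merged into 161657 sites over all 4 lists. The 4545 sites rested on 4558 peaks of input replicate 1 and 4559 of input replicate 2. The other 18258 reproducible input sites, which had a peak in 1 or both pull-downs, serve as the comparison. The sites were chosen by presence in both inputs and absence from both pull-downs, so no test of pull-down against input was made on them. With 2 against 2 samples the smallest two-sided exact permutation p would be 0.333. A site counts as absent when no peak was listed, which does not show that no reads were there.

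At the edge of the rule, 16 sites (0.352%) lay fewer than 10 bases from a pull-down peak, with a median width of 6.5 bases. Just outside it, 2955 of the other sites (16.2%) shared fewer than 10 bases with a pull-down peak, with a median width of 9 bases. Any site narrower than 10 bases that meets a pull-down peak shares fewer than 10 bases with it, so the short median follows from the limit. By relative overlap, 1527 of the other sites (8.36%) were covered by pull-down peaks over less than 50% of their length, with a median width of 100 bases and 79.1% wide. Of the wide sites with a pull-down peak, 40.3% were covered to less than 50%. Of the chosen sites, 97.6% were 100 bases or more away from any pull-down peak on their strand.

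The sites without a pull-down peak were wide. Their median width after merging was 84 bases, with the middle 50% between 24 and 142, against 15 bases and 11 to 26 for the sites with a pull-down peak. Wide sites, of at least 50 bases, made up 2914 of the 4545 (64.1%), against 3000 of 18258 (16.4%). At 100 bases or more the shares were 43.7% and 9.63%. Merging widens a site, because it joins the outer edges of both replicates' peaks. The single peaks beneath the sites had median widths of 62 bases in input replicate 1 and 60 in replicate 2, against 12 and 14 bases beneath the sites with a pull-down peak. The difference between the kinds of site was therefore present in each input by itself and was much larger than the difference between the replicates.

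**Figure D1:**
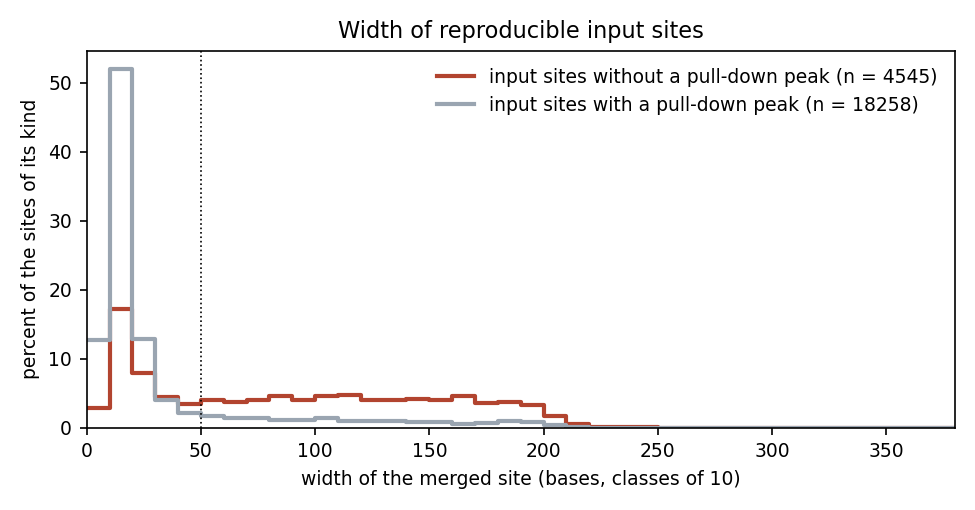
Width of the merged site in classes of 10 bases (horizontal axis) against the percent of the sites of its kind (vertical axis), for the 4545 input sites without a pull-down peak and the 18258 with one; the dotted line marks 50 bases. The sites with a pull-down peak crowd below 30 bases, whereas those without one have a second, flat part that reaches to about 200 bases.

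The share of sites that lacked a pull-down peak was larger in the wider classes. It was 5.36% (95% Wilson interval 4.54 to 6.33) at 2 to 9 bases and 5.80% (5.26 to 6.40) at 10 to 14 bases. It was 10.6% at 15 to 19 bases and 17.3% at 20 to 49 bases. At 50 to 99 bases it was 42.8% (40.7 to 44.9), at 100 to 149 bases 51.4% (49.2 to 53.6), and at 150 bases or more 54.7% (52.4 to 57.0). The intervals cover counting error only, since neighbouring sites are not independent. Each pull-down by itself gave a rising order from 10 bases on, but the 2 narrowest classes stood the other way round, with 10.3% of sites at 2 to 9 bases and 7.98% at 10 to 14 bases absent from replicate 1, and 9.62% and 7.72% absent from replicate 2. In the 3 wide classes 51.6%, 58.9% and 62.5% of sites were absent from replicate 1 and 46.3%, 55.7% and 58.9% from replicate 2.

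Sites found in a single pull-down were intermediate in width. Sites with peaks in both pull-downs were typically 15 bases wide (median), and 13.8% of them were wide. The 645 sites found in pull-down replicate 1 alone had a median of 21 bases with 36.3% wide, and the 1031 found in replicate 2 alone had a median of 39 bases with 46.1% wide. The 35889 reproducible pull-down sites that no input listed, the mirror image of the sites described here, had a median width of 16 bases with 21.6% wide.

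Wide and narrow sites differed in score. The score is the authors' own whole number for each peak, at least 10, and its meaning is not stated, so it was used only within a list. Peaks beneath wide sites without a pull-down peak had median scores of 14 in input replicate 1 and 18 in replicate 2. Beneath wide sites with a pull-down peak the medians were 20 and 26. Peaks beneath narrow sites without a pull-down peak had medians of 19 and 22, against 20 and 24 for narrow sites with one. The wide sites that the pull-downs lacked thus sat lower in both input lists than the other wide sites, at median score percentiles of 36.8 and 55.1 against 58.6 and 72.1 (input replicates 1 and 2).

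Within a score class the wide sites still stood apart from the narrow ones. Of wide sites scoring 10 to 14 in input replicate 1, 62.9% (61.0 to 64.8) lacked a pull-down peak, against 10.9% (10.1 to 11.8) of narrow sites. At 25 to 49 the shares were 31.4% and 7.95%. At 100 or more they were 12.4% (8.50 to 17.8) and 15.2% (12.6 to 18.1), with overlapping intervals. Input replicate 2 gave 65.0% and 13.3% at 10 to 14, 40.5% and 7.89% at 25 to 49, and 14.9% and 11.6% at 100 or more. Among wide sites the share without a pull-down peak was lower in each higher score class of both inputs. Among narrow sites it stayed between 7.89% and 15.2% and was lowest at 25 to 49 in both inputs. From there the narrow share rose to 12.4% and 10.1% at 50 to 99 (input replicates 1 and 2). At 100 or more it was higher again, at 15.2% and 11.6%.

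**Figure D2:**
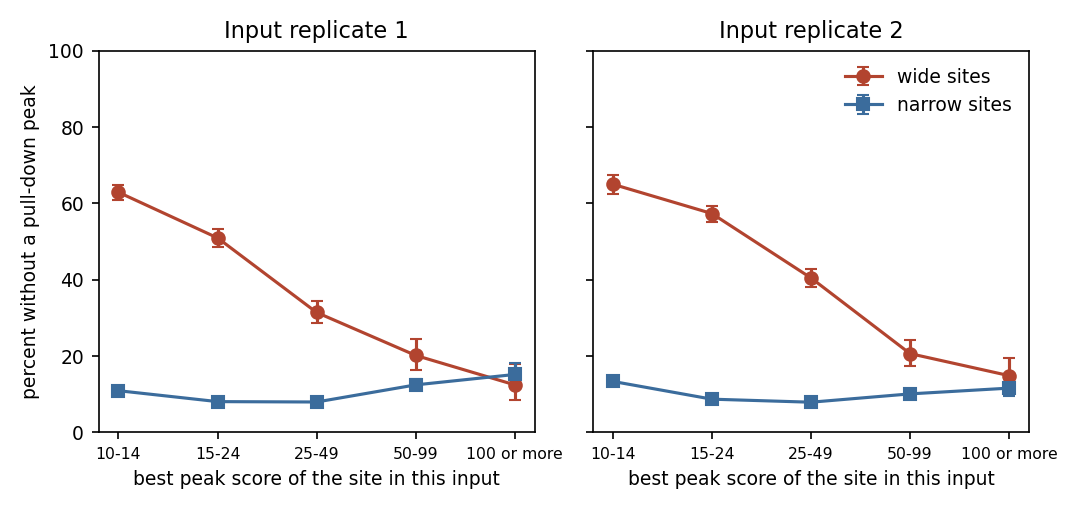
Percent of reproducible input sites without a pull-down peak (vertical axis) by the best score of the site's peaks in 1 input (horizontal axis, 5 score classes), for wide and narrow sites; bars are 95% Wilson intervals. Wide sites go from 62.9% and 65.0% in the lowest class to 12.4% and 14.9% in the highest (input replicates 1 and 2), where they meet the narrow sites.

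Input peaks were also sorted by 1 pull-down and looked up in the other. Of the peaks of input replicate 1 that had no peak in pull-down replicate 1, 85.8% (85.1 to 86.4) also had none in replicate 2. Of those that had one in replicate 1, 4.75% (4.46 to 5.06) had none in replicate 2. With the pull-downs exchanged the shares were 90.2% and 7.08%. Input replicate 2 gave 86.5% and 5.07%, and 91.0% and 7.78% with the pull-downs exchanged. In each of the 4 combinations most peaks absent from 1 pull-down were absent from the other, slightly more often for wide peaks. The 2 directions are not independent. They share the peaks absent from both pull-downs, 8515 of input replicate 1 and 13639 of replicate 2. The rule used both pull-downs, so these shares describe how far the lists agree and test nothing. When input replicate 1 was looked up after a choice by pull-down replicate 1, 88.7% of wide and 83.3% of narrow peaks without a peak in that pull-down had none in the other. The share that lacked a peak in the other pull-down although the choosing one had listed it was 12.2% for wide peaks and 3.92% for narrow ones.

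The edges of the sites varied between the inputs. Nearly every site, 99.4% of those without a pull-down peak and 99.6% of the others, held exactly 1 peak from each input. Both edges were at the same base in 2.14% of the wide and 14.3% of the narrow sites without a pull-down peak, against 2.64% and 11.9% of the sites with one. For wide sites the 2 input peaks shared a median of 68.8% of their joint length where the pull-downs had nothing and 50.0% where they had a peak. At least 1 edge was at the same base in 24.6% of the wide sites without a pull-down peak, against 35.6% of the wide sites with one. The wide sites that the pull-downs lacked thus shared more of their length between the inputs but fewer exact edges. Width was judged on the joint length here, so 2 narrow peaks that overlap in part can also make a wide site.

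The opposite strand, which the rule did not use, was almost empty. A peak lay opposite a site without a pull-down peak in 13 and 18 of 4545 cases in the pull-downs and in 25 and 34 in the inputs (replicates 1 and 2). These are shares of 0.286% (0.167 to 0.489) and 0.396% (0.251 to 0.625) for the pull-downs and of 0.550% (0.373 to 0.811) and 0.748% (0.536 to 1.04) for the inputs. For the sites with a pull-down peak the shares were 0.164% and 0.175% in pull-down lists and 0.148% and 0.197% in input lists. The inputs' opposite peaks were more frequent at sites without a pull-down peak, with separate intervals in both replicates, also in nuclear RNA alone (0.445% and 0.557%, against 0.093% and 0.126%). The pull-downs' opposite peaks were also more frequent there. Their intervals were separate in replicate 2 and overlapped in replicate 1, and in nuclear RNA alone they overlapped in both. For the inputs' opposite peaks at wide sites by themselves the intervals overlapped, at 0.549% and 0.618% against 0.333% and 0.367%. At narrow sites they were separate, at 0.552% and 0.981% against 0.111% and 0.164%. The narrow sites include 50 of the 54 mitochondrial sites without a pull-down peak, and nuclear narrow sites were not counted apart. Counting pull-down peaks on either strand removed 23 sites and left 4522.

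Around the wide sites, other input peaks were more frequent than around wide sites with a pull-down peak. Other pull-down peaks were fewer in mean number. Within 10 kb on the same strand, and leaving out the peak on the site itself, pull-down replicates 1 and 2 had another peak near 51.6% and 62.9% of the wide sites without a pull-down peak, against 52.4% and 58.5% of wide sites with one. Another peak of input replicates 1 and 2 lay within 10 kb of 59.8% and 70.5% of the wide sites without a pull-down peak, against 34.1% and 42.8% of those with one. Within 1 kb the pull-down shares were 10.3% and 14.2% at sites without a pull-down peak and 14.6% and 17.7% at sites with one. The corresponding input shares were 21.4% and 28.4%, against 13% and 17.5%. In mean number within 10 kb, wide sites without a pull-down peak had 1.18 and 1.62 other pull-down peaks, against 1.96 and 2.47 at wide sites with one. The mean numbers of other input peaks were 2.06 and 3.03, against 1.40 and 2.03. The share of wide sites with at least 1 other pull-down peak within 10 kb was thus similar for both kinds. The mean number of such peaks was lower at wide sites without a pull-down peak. Narrow sites without a pull-down peak went the other way, with means of 2.19 and 2.68 and shares of 45.2% and 48.7%. Narrow sites with one had means of 0.873 and 1.01 and shares of 34.1% and 36.5%. The pull-down lists were longer, so these values are comparable between kinds of site within a library and not between libraries. Of the 2914 wide sites without a pull-down peak, 1411 had no peak of pull-down replicate 1 and 1080 none of replicate 2 within 10 kb.

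**Figure D3:**
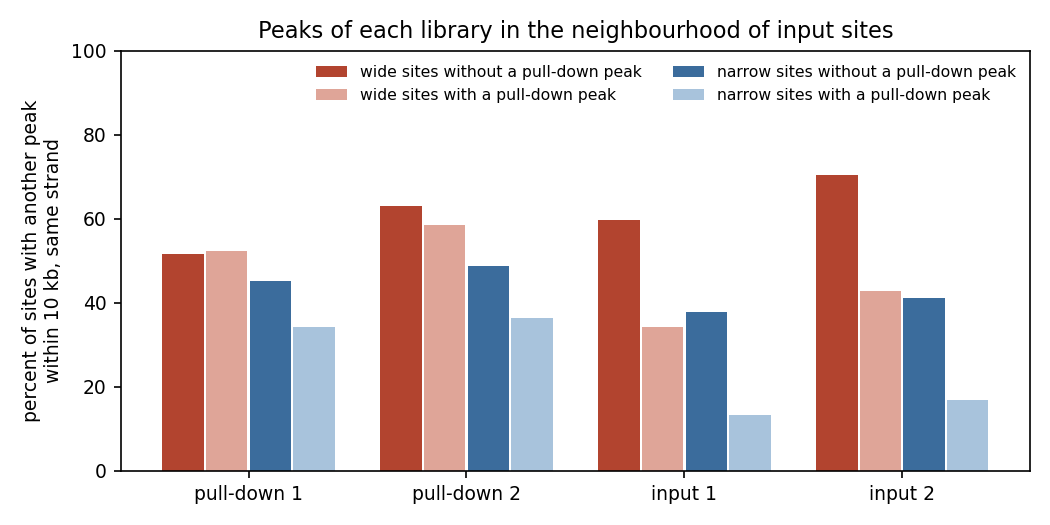
Percent of input sites with another peak of a library within 10 kb on the same strand (vertical axis), for each of the 4 libraries (horizontal axis) and 4 kinds of site: wide or narrow, without or with a pull-down peak. For wide sites the bars of the pull-downs differ little between the kinds (51.6% and 62.9% without a pull-down peak, 52.4% and 58.5% with one), while those of the inputs are higher at sites without a pull-down peak (59.8% and 70.5%, against 34.1% and 42.8%).

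Sites often followed one another along a strand. A run was taken as 2 or more sites on 1 strand with gaps of at most 1 kb. Runs held 654 of the 4545 sites (14.4%, 13.4 to 15.4), against 624 of the 18258 sites with a pull-down peak (3.42%, 3.16 to 3.69). In nuclear RNA alone the shares were 13.4% and 3.19%. The sites with a pull-down peak lay in runs of their own less often although there were more of them. Their longest run was larger, with 33 sites against 20. Runs of 5 or more sites numbered 19 among them and held 193 sites, against 11 runs with 95 sites without a pull-down peak. The run of 20 sites was mitochondrial, and in nuclear RNA alone the longest runs held 33 and 10 sites. Nuclear runs of 5 or more sites numbered 16 with 159 sites, against 8 with 51 sites without a pull-down peak. With gaps of up to 10 kb, 38% of the sites without a pull-down peak lay in runs and 11.6% of the others, and among wide sites the shares were 41.9% and 18.6%.

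The 564 nuclear runs with gaps of up to 10 kb held 1673 sites. Their median span was 4538 bases and the median gap between neighbouring sites was 1990 bases, so the sites covered a median of 5.80% of a run. The spans of these runs listed 492 and 631 pull-down peaks against 2240 and 2608 input peaks on their strand (replicates 1 and 2). Of wide peaks they listed 190 and 244 in the pull-downs, against 1422 and 1575 in the inputs. In 326 of the 564 runs (57.8%) neither pull-down listed a single peak on that strand from the first site to the last, the gaps included. The gaps were not used by the rule, but the sites that bound them were, so these numbers describe the runs and test nothing.

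The 8 runs with the most sites at gaps of at most 1 kb lay in the mitochondrial genome and on chromosomes 6, 11, 16, 17 and 19. The eighth place was shared by 4 runs of 5 sites. Positions are taken as GRCh37 and are 1-based. Nuclear positions could not be assigned to genes here, because the only gene table used was on GRCh38.p14. On chromosome 19 (plus strand), 7 sites of 20 to 133 bases lay within 3.09 kb (580378 to 583465). That stretch listed 0 peaks in each pull-down and 8 and 9 in the inputs. On chromosome 11 (plus strand), 6 sites of 62 to 99 bases, each of them wide, lay within 2.77 kb (2415329 to 2418094), with 0 peaks in each pull-down and 6 in each input. Neither pull-down listed a peak in either stretch. The rule chose sites that both inputs listed and no pull-down did, so it fixed this contrast at the sites themselves. On chromosome 11 each input listed as many peaks as there were sites.

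A run of 8 sites lay on chromosome 17 (minus strand), from 80041220 to 80045077, with 3 peaks in each pull-down and 12 and 16 in the inputs. With gaps of up to 10 kb it grew to 19 sites over 21.2 kb (80038276 to 80059514) and was the nuclear run with the most sites. The longer stretch listed 11 peaks in each pull-down and 37 and 46 in the inputs. On chromosome 16 (plus strand), 5 sites lay within 2.03 kb (30079966 to 30081995), with 1 and 0 pull-down peaks against 6 and 10 input peaks. The 3 runs tied with it had no wide site. One was a part of the longer chromosome 17 stretch, from 80038276 to 80039929, with 0 and 1 pull-down peaks against 7 and 9 input peaks. Another on chromosome 16 (plus strand), from 33962770 to 33964085, listed 8 and 9 pull-down peaks against 18 and 19 input peaks, and one on chromosome 20 (minus strand), from 26188725 to 26189956, listed 6 and 7 against 13 and 14. Pull-down peaks were thus numerous between the sites in 2 of the 4 tied runs. The run on chromosome 6 (plus strand), from 151670125 to 151674703, was of another kind. The median width of its 10 sites was 13 bases, none was wide, and the pull-downs listed 2 and 7 narrow peaks there against 18 and 26 in the inputs.

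Longer runs of wide sites appeared at gaps of up to 10 kb. On chromosome 3 (plus strand), 13 sites with a median width of 85 bases were spread over 35.9 kb (184017001 to 184052888), with 0 and 5 pull-down peaks against 18 and 29 input peaks. On chromosome 1 (plus strand), 11 sites with a median of 124 bases were spread over 20.6 kb (116926637 to 116947244), with 1 and 0 pull-down peaks against 13 and 14 input peaks. On chromosome 20 (minus strand), 11 sites were spread over 29.2 kb (60884339 to 60913493), with 1 and 0 pull-down peaks and 21 peaks in each input. On chromosome 12 (minus strand), 11 sites were spread over 28.9 kb (6687643 to 6716545), with 2 peaks in each pull-down and 15 and 22 in the inputs. These 4 stretches were chosen for their sites after the runs had been ranked, and each input listed more peaks in them than either pull-down.

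The sites were scattered over the genome, with a part of them concentrated. When each strand was cut into windows of 100 kb, 2984 windows held at least 1 site and 2234 a single one. The 343 windows with 3 or more sites held 1497 sites (32.9%), and 731 windows were needed to hold 50.0%. In regions of 1 Mb, both strands together, the sites were found in 1432 regions, and 224 of these held 50.1% of them. The 78 regions with 10 or more sites held 1219 sites (26.8%) and lay on 21 chromosomes, the mitochondrial genome included, with 16 on chromosome 19 and 6 on chromosome 17. In all 78 the share of listed peaks in either pull-down was below that in either input, which was the case in 23.1% of the 2776 regions that averaged 10 or more peaks over the libraries. The rule used that contrast, so the count describes how the regions were found.

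The 5 regions with the most sites were the mitochondrial genome with 54, 1 region each on chromosomes 17 (79000001 to 80000000) and 19 (1000001 to 2000000) with 37, the next region of chromosome 17 (80000001 to 81000000) with 30, and a region of chromosome 6 (31000001 to 32000000) with 27. The first of the chromosome 17 regions listed 55 and 75 pull-down peaks against 95 and 110 input peaks, which is 6.23 ± 0.72 of every 10000 listed peaks for pull-downs and 29.2 ± 4.5 for inputs (SD, n = 2 each). The chromosome 19 region listed 6.78 ± 1.34 per 10000 for pull-downs and 26.3 ± 2.3 for inputs. The chromosome 6 region listed 4.27 ± 0.44 for pull-downs and 18.8 ± 0.4 for inputs. In these 4 nuclear regions 60% to 67.5% of the reproducible input sites had no pull-down peak, against 19.9% over all chromosomes. The regions were ranked by their number of such sites, which favours a high share.

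The 12 windows of 100 kb with the most sites held 176 sites (3.87%). After the plus strand of the mitochondrial genome, the first was on chromosome 17 (minus strand), from 80000001 to 80100000, with 23 sites. It listed 12 and 14 pull-down peaks against 44 and 57 input peaks. On chromosome 3, the plus-strand window from 184000001 to 184100000 held 13 sites, with 2 and 6 pull-down peaks against 20 and 31 input peaks. On chromosome 17, the minus-strand window from 79800001 to 79900000 held 12 sites, with 13 and 20 pull-down peaks against 33 and 36 input peaks. In raw numbers, too, the longer pull-down lists had fewer peaks than the inputs in each of these 3 windows. All 12 windows were picked for their sites without a pull-down peak, so the peak counts describe the choice and test nothing.

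In 5 of the 12 windows every site, or every site but 1, was wide. Chromosome 19 (plus strand) from 1200001 to 1300000 held 11 sites, all wide, with a median of 119 bases. It listed 2 and 4 pull-down peaks against 13 and 21 input peaks. Chromosome 5 (plus strand) from 179100001 to 179200000 held 11 sites, all wide, with 6 peaks in each pull-down and 16 and 17 in the inputs. On chromosome 8, the minus strand from 48700001 to 48800000 held 10 sites, all wide, with the largest median of the 12 windows at 186.5 bases. There the pull-downs listed 3 and 5 peaks and the inputs 10 and 19, and no reproducible input site had a pull-down peak. Chromosome 1 (plus strand) from 116900001 to 117000000 held 11 sites, 10 of them wide, with 4 and 3 pull-down peaks against 14 and 17 input peaks.

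Chromosome 4 (minus strand) from 187500001 to 187600000, the last of the 5, held 9 sites, all wide, next to 8 with a pull-down peak, and listed 30 and 37 pull-down peaks against 23 and 29 input peaks. Raw pull-down numbers exceeded the input numbers there, and per 10000 listed peaks the order was the reverse, with 3.22 ± 0.14 for pull-downs and 7.34 ± 0.68 for inputs (SD, n = 2 each).

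Several other windows held 9 sites as well, so the last place among the 12 was shared.

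Narrow sites prevailed in 3 of the 12 windows besides the mitochondrial plus strand and the first one on chromosome 17. Chromosome 2 (minus strand) from 133000001 to 133100000 held 11 sites with a median width of 14 bases, next to 20 input sites that the pull-downs did list. Its pull-down peaks numbered 31 and 26 and its input peaks 41 and 43. Chromosome 6 (plus strand) from 151600001 to 151700000 held 11 sites, of which 1 was wide, with 29 and 26 pull-down peaks against 25 and 37 input peaks. The minus strand of the mitochondrial genome held 14 sites, with 21 and 31 pull-down peaks against 44 and 66 input peaks.

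**Figure D4:**
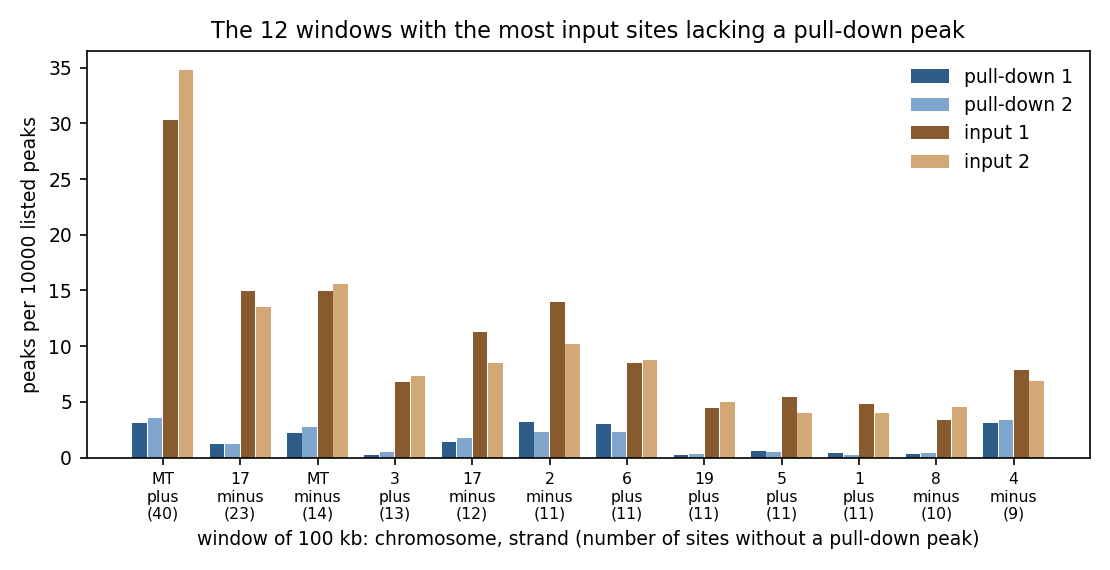
Peaks per 10000 listed peaks in each library (vertical axis) for the 12 windows of 100 kb on 1 strand with the most input sites lacking a pull-down peak (horizontal axis, with the chromosome, the strand and the number of such sites); the mitochondrial genome is shorter than a window. Both pull-down bars stand below both input bars in each window, from 1.25 and 1.26 against 15 and 13.5 on chromosome 17 (23 sites) to 3.12 and 3.33 against 7.83 and 6.86 on chromosome 4. The windows were picked for their number of such sites, so this order describes the choice and tests nothing.

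Chromosomes differed widely in how many of their reproducible input sites the pull-downs lacked. The share was highest in the mitochondrial genome, with 54 of 104 sites (51.9%, 42.4 to 61.3), on chromosome 19, with 393 of 961 (40.9%, 37.8 to 44.0), and on chromosome 17, with 347 of 1021 (34.0%, 31.1 to 36.9). It was lowest on chromosome Y, with 2 of 110 (1.82%, 0.500 to 6.39), chromosome 13, with 55 of 547 (10.1%, 7.81 to 12.9), and chromosome 18, with 52 of 472 (11%, 8.50 to 14.2). Chromosome 19 is the most gene-dense human chromosome, and chromosomes 13 and 18 are poor in genes.

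The shares went with the number of genes per Mb. The RefSeq table on GRCh38.p14 holds 1451 protein-coding genes on chromosome 19, or 24.8 per Mb, 1169 on chromosome 17 (14 per Mb), 338 on chromosome 13 (2.96 per Mb) and 270 on chromosome 18 (3.36 per Mb). Across the 24 nuclear chromosomes, Pearson's r between genes per Mb and the share without a pull-down peak was 0.87 and Spearman's rho was 0.90. Without chromosome 19 and chromosome Y they were 0.89 and 0.87 over 22 chromosomes. All chromosomes share the same 4 libraries, and differ also in base composition and in the width of their sites. Wide sites made up 47.8% of the reproducible input sites on chromosome 19 and 16.1% on chromosome 13. The relation was seen within width classes as well, with r of 0.58 and rho of 0.75 among wide sites and r of 0.84 and rho of 0.85 among narrow sites. Of the narrow sites, 20.3% lacked a pull-down peak on chromosome 19, 17.9% on chromosome 17, 6.54% on chromosome 13 and 6.34% on chromosome 18. Of the wide sites these shares were 63.4%, 56.3%, 28.4% and 41.9%. Chromosome 21 went against the order, with 69.0% of its 71 wide sites lacking a pull-down peak at 5.12 genes per Mb.

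**Figure D5:**
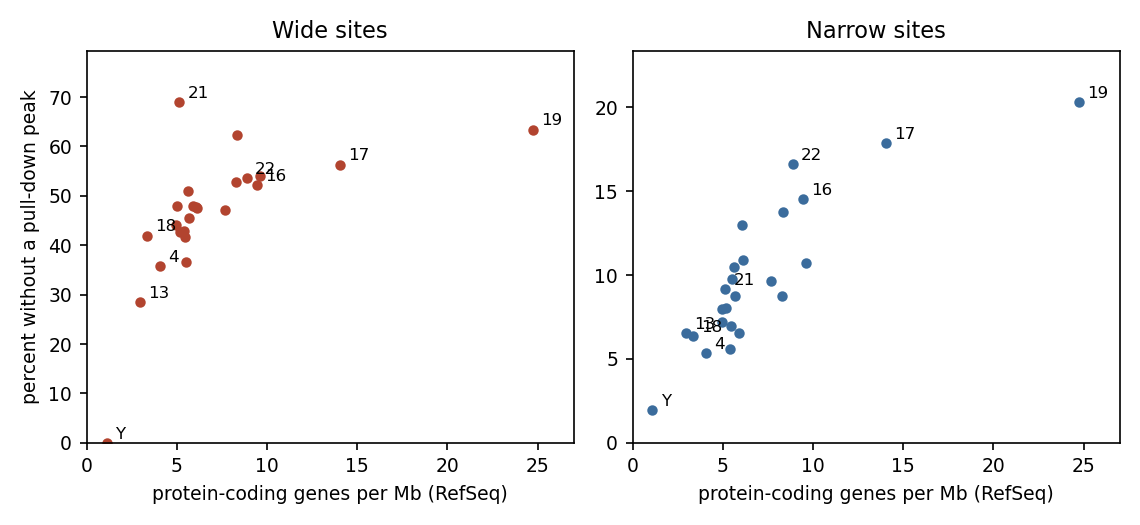
Percent of reproducible input sites without a pull-down peak (vertical axes) against protein-coding genes per Mb in RefSeq (horizontal axes), 1 point for each of the 24 nuclear chromosomes, for wide sites (left) and narrow sites (right); some points carry the chromosome's name. Chromosome 19 reaches 63.4% of wide and 20.3% of narrow sites at 24.8 genes per Mb, against 28.4% and 6.54% for chromosome 13 at 2.96 genes per Mb.

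Many of the sites lay near the ends of chromosomes, where genes are dense on several arms. Within 2 Mb of an end lay 507 of the 4491 nuclear sites without a pull-down peak (11.3%, 10.4 to 12.2), against 501 of 18208 with one (2.75%, 2.52 to 3.00). Of all listed nuclear peaks, 2.41% and 2.52% of the pull-downs' and 5.29% and 4.91% of the inputs' lay there (replicates 1 and 2). Among wide sites the shares were 12.8% without and 5.44% with a pull-down peak, and among narrow sites 8.54% and 2.22%.

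The mitochondrial genome, which is transcribed outside the nucleus, gave sites of the narrow kind. Among its 54 sites without a pull-down peak the median was 16 bases and 4 reached 50 bases, against 19.5 bases and 6 of the 50 sites with a pull-down peak. On the plus strand lay 40 of them and on the minus strand 14. Each was given to the RefSeq mitochondrial gene that holds its midpoint, whatever the strand, on the assumption that this sequence is the same in both builds. Of the 54, 2 fell in none of the genes named here. Not all of the 50 sites with a pull-down peak are counted under a gene either. RNR2, the large ribosomal RNA, held 7 sites without and 15 with a pull-down peak, and RNR1, the small one, held 3 and 5. COX2, a subunit of cytochrome c oxidase, held 5 and 1. ND4 and ND2, subunits of complex I, held 6 and 2 and 4 and 1. ATP6 and ATP8, subunits of ATP synthase, held 3 and 2 sites without a pull-down peak and 0 with one. COX1 and ND1 held 3 and 1 each, COX3 5 and 3, CYTB, the cytochrome b of complex III, 4 and 3, and ND4L 1 and 0. ND6 held 3 and 3, ND3 1 and 2, and ND5 2 and 6. The ribosomal RNAs thus kept a pull-down peak at most of their input sites, and so did ND3 and ND5 among the protein-coding genes, while 10 of the 13 protein-coding genes had more sites without a pull-down peak than with one. These counts are by position and not by transcript, since both strands are included. All 4 CYTB sites and the 1 ND4L site without a pull-down peak lay on the minus strand. Of the 3 such sites in ND6, 2 lay on the plus strand.

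The 5 sites with the best mean score rank in the inputs were narrow. The first, of 30 bases on chromosome 16 (plus strand), from 11891035 to 11891064, scored 335 and 350 in the inputs (replicates 1 and 2) and ranked 24 and 34. The nearest pull-down peak on its strand was 527 bases away. The second, of 37 bases on chromosome 19 (plus strand), from 53313060 to 53313096, scored 244 and 338 and had its nearest pull-down peak at 3383 bases. The others were a site of 22 bases on chromosome 6 (plus strand), from 28058832 to 28058853, one of 20 bases on chromosome 18 (plus strand), from 14450477 to 14450496, and one of 18 bases on chromosome 2 (minus strand), from 85931088 to 85931105, with the nearest pull-down peaks at 12788, 9888 and 48934 bases. All 5 were narrower than 50 bases, unlike most of the sites, and none lay in the windows named above. A mean rank of 1000 or better was held by 91 of the sites without a pull-down peak (2.0%), against 658 of those with one (3.6%).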

How the data were processed

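The authors deposited 1 peak list per sample, with peaks called per sample. Per the submitters' processing notes, STAR, featureCounts and the GRCh38 build were used. Which program called the peaks, and at what threshold, is not given in the sources used here. Scores are the authors' deposited integers, of unstated meaning, and the other deposited values used here are start and end positions in bases. Of 278492 nuclear peaks, 1214 run beyond the chromosome's GRCh38 length and 0 beyond its GRCh37 length, so positions are taken as GRCh37. Chromosome lengths were taken from general knowledge. No genome of that build was used here, so no sequence is printed and nuclear sites carry no gene names.

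Overlap was counted by strand with Python 3.11.15, numpy 2.4.6 and pandas 2.3.3, in code tested on simulated intervals against direct counting. Wilson intervals (95%) came from scipy 1.17.1. No peak overlapped another of its own list, and peaks that only touch were not merged. Windows, regions, runs and single sites are named by fixed rules: the 12 windows, 8 runs and 5 regions with the most sites, the 5 best mean score ranks, and the 3 highest and 3 lowest chromosomes. The longer runs with gaps of up to 10 kb, chromosome 21 and the mitochondrial genes were chosen after their values had been seen. The sites and these rules were chosen with earlier results of these data known. Alternatives were another overlap, either strand, lists of equal length, the better-scoring 50% of each list, a margin of 100 bases, other gaps and windows, and each replicate left out.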

Additional observations from a re-analysis of the deposited data

How the results depend on the processing

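No test was run on the sites, so no fit with a replicate block was made. Pairing by number, with the pull-down of the same number alone in place of a replicate block, left 9928 peaks of input 1 (33.8%) and 14982 of input 2 (35.5%). Under the settings for overlap, strand, list length, score, margin and left-out replicates, the sites without a pull-down peak had a larger median width, a larger wide share and a larger share on chromosome 19 than the sites with one. Their median width ranged from 43 to 86 bases against 12 to 17 bases. In lists of equal length (29386 peaks each) there were 7001 sites, or 35.1% of the reproducible ones, with a median width of 50 bases, 50.2% wide, 6.87% on chromosome 19 and 13.3% in runs. In the better-scoring 50% of each list there were 2259 sites with a median of 60 bases, 53.5% wide, 10.1% in runs and 4.52% in the 12 fullest windows. When overlap had to cover 50% of each peak, the share of reproducible sites was 24%, the median 62 bases, with 54.2% wide, 7.85% on chromosome 19 and 12.4% in runs. Removing sites within 100 bases of a pull-down peak gave a median of 86 bases and 13.2% in runs. Without the mitochondrial genome, a setting chosen after seeing the data, 13.4% lay in runs and 3.12% in the 12 fullest windows. Gaps of at most 200 bases put 3.59% in runs and gaps of at most 10 kb 38%. The 12 fullest windows of 1 Mb on 1 strand held 5.32%.

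Leaving out each replicate in turn gave 5190 to 13639 sites, 22.8% to 32.3% of the input sites, medians of 43 to 78 bases, 47.4% to 60.8% wide, 7.71% to 8.91% on chromosome 19, 14.1% to 18.5% in runs and 2.69% to 3.70% in the 12 fullest windows. The number was most affected without input replicate 1 (13639) and without input replicate 2 (8515), since the peaks of 1 input then need not be found again. Read depth is unknown, and a weak peak can fall below the listing threshold of 1 library.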
